A study of Mus musculus with 5 samples.

Results

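Nr5a1, Slc17a6 and Cbln1 are 3 genes whose messages mark neurons of the ventromedial hypothalamus (VMH), and their signals were followed here over all 5 arrays of the study as a reading of what tissue the dissections held. They were taken as every probe set annotated to the 3 gene symbols, which gave 7 probe sets of 22690. Of these, 6 were bright enough to be kept, among 6650 kept genes in all. None of the 3 belongs to the classic activity-induced genes.

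The VMH is a paired nucleus of the mediobasal hypothalamus, built mainly of glutamatergic neurons and known for its part in satiety, glucose balance, defensive behaviour and mating behaviour. Nr5a1 encodes steroidogenic factor 1, an orphan nuclear receptor that in the adult brain is largely restricted to the VMH and is needed for the nucleus to form. Slc17a6 encodes VGLUT2, the transporter that loads glutamate into synaptic vesicles, and is used by most excitatory neurons of the hypothalamus and thalamus, so that it marks the transmitter rather than the nucleus. Cbln1 encodes a secreted synapse organizer that bridges presynaptic neurexins and postsynaptic delta glutamate receptors. It is best known from cerebellar granule cells and is also made in several hypothalamic and thalamic groups.

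The mice were C57Bl/6, under isoflurane. The sham group was handled without current and collected at 2 h, and the other 4 groups had 1 or 7 electroconvulsive shocks (ECS), a current passed between ear clips that evokes a seizure, with collection 2 h or 6 h later. The nucleus was cut by laser from stained sections of 7 µm, RNA of 2 or 3 animals was pooled, and 2 ng was amplified for each Affymetrix array. There was 1 array per group, which leaves the scatter between like samples unmeasured and allows no test, and precision is limited by that number. The sham was collected at 2 h, so a 6 h array set against it differs in time as well as in shocks. In such tissue RNA, fewer cells of a type and less RNA per cell cannot be told apart.

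The titles and source fields name the VMH, while the description field of the same samples names the PVN, the neighbouring paraventricular nucleus. The median deposited signal was 20.3 to 31.6 per array, lowest on the array of 1 shock at 2 h. The ratio of 3′ to 5′ signal of the Gapdh control probe sets, a sign of RNA length, ran from 5.37 on the array of 1 shock at 6 h to 8.77 on that of 1 shock at 2 h. The array of 1 shock at 6 h stood apart in having 16 genes at least 4-fold below all other arrays, against 4 to 6 on each other array. Readings below are signals after each array was centred on its median, on a linear scale with a pseudocount of 1.2 included, unless called deposited. Differences are log2 differences of the centred values, first group minus second.

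The genes lie on separate chromosomes. In GRCm38.p6, Nr5a1 spans chr2:38692656-38714542, Slc17a6 spans chr7:51621830-51671126 and Cbln1 spans chr8:87468853-87472592. Slc17a6 was the only one of the 3 with promoter windows in the RefSeq table used here. The 250 bases before its first listed start, chr7:51621580-51621829 on the plus strand, are shown as the regulatory DNA next to that gene, all in lower case because neither motif searched was found in them.
Slc17a6 upstream: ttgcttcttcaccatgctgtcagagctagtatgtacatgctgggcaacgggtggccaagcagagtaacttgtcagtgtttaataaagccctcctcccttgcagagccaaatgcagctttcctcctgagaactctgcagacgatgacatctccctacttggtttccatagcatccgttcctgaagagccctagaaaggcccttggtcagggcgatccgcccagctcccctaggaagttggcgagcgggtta
The extended half-site AAGGTCA, a common binding form for Nr5a1, had 0 matches on either strand there and in the window of the second listed start, and 4.08% of 32851 promoter windows of this length held it. The half-site TGACG of the cAMP response element had 0 matches in the first window and 1 in the second, chr7:51624387-51624636, and 17.8% of all windows held it. These counts describe letters in the windows only, and no other motif was searched.

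Nr5a1, the transcription factor of the nucleus, had the widest range of the 3 genes. Its main probe set 1418315_at read 94.8 on the sham array, 67.3 on 1 shock at 2 h, 158 on 1 shock at 6 h, 123 on 7 shocks at 2 h and 130.4 on 7 shocks at 6 h. It was thus lowest on 1 shock at 2 h, next on sham, and higher on the remaining 3 arrays. The deposited signals were 78.5, 50.4, 173.3, 145.6 and 152.1 in the same order, which placed it between the 67.7th and the 81.8th percentile of its array. Against sham the log2 differences were -0.50, 0.73, 0.38 and 0.46.

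The second probe set of Nr5a1, 1421730_at, did not follow the first. It was dim, below the filter on low values, with deposited signals of 22.8 on sham, 18.8 on 1 shock at 2 h, 14.3 on 1 shock at 6 h, 28.3 on 7 shocks at 2 h and 6.4 on 7 shocks at 6 h. Its log2 differences against sham were -0.13, -1.03, -0.21 and -2.14, so that in the 3 comparisons where the main probe set was above sham this one was below it. The direction of the Nr5a1 differences therefore rests on 1 probe set.

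**Figure D1:**
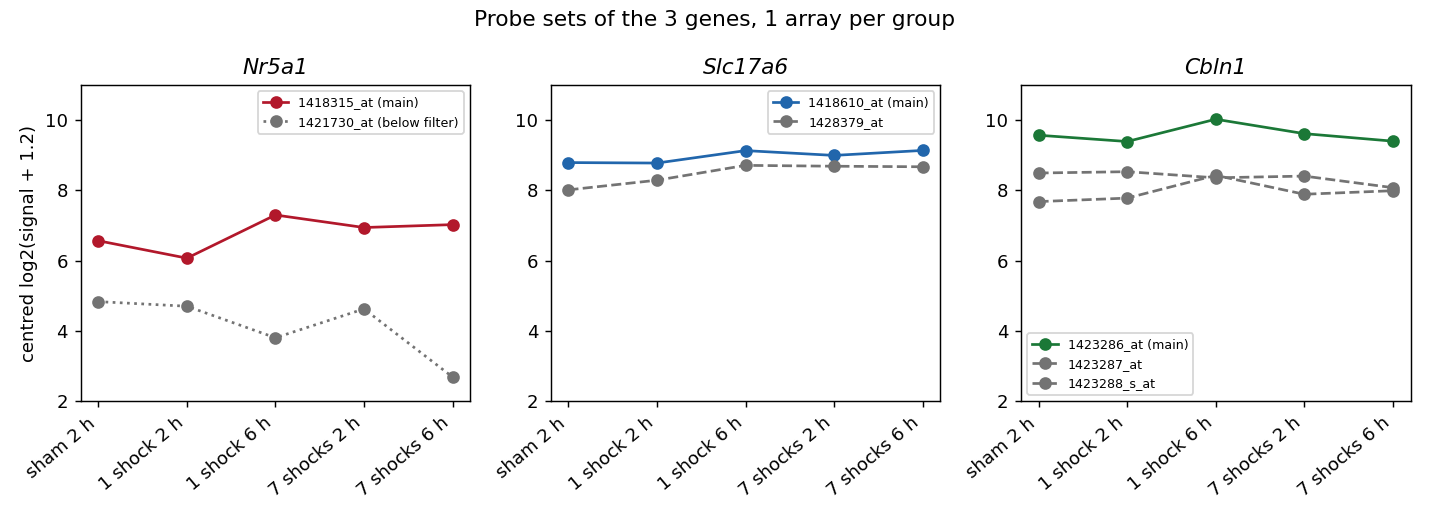
Centred log2(signal + 1.2) of every probe set of Nr5a1, Slc17a6 and Cbln1 (vertical axis) on each of the 5 arrays (horizontal axis), 1 point per array with no error because there was 1 array per group. Coloured lines are the main probe sets and grey lines the others; both Slc17a6 lines are above their sham values on the last 3 arrays, whereas the dim Nr5a1 probe set (dotted) is below its sham value on the 3 arrays where the main one is above it.

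Slc17a6, the vesicular glutamate transporter, was the steadiest of the 3 by its main probe set. This probe set, 1418610_at, read 443 on sham, 439 on 1 shock at 2 h, 561 on 1 shock at 6 h, 510.3 on 7 shocks at 2 h and 563 on 7 shocks at 6 h. Sham and 1 shock at 2 h lay together at the low end, and the other 3 arrays lay 1.15-fold to 1.27-fold above sham. Against sham the log2 differences were -0.013, 0.34, 0.20 and 0.35.

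The second Slc17a6 probe set, 1428379_at, read 259 on sham, 313 on 1 shock at 2 h, 419 on 1 shock at 6 h, 412 on 7 shocks at 2 h and 408 on 7 shocks at 6 h. It too put those 3 arrays above sham and above 1 shock at 2 h. Its log2 differences from sham were larger, at 0.27, 0.70, 0.67 and 0.66. The 2 probe sets had the same sign in 3 of the 4 comparisons with sham, and at 2 h after 1 shock the main one was at -0.013.

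Cbln1, the synapse organizer, had one high array. Its main probe set 1423286_at read 759.6 on sham, 671 on 1 shock at 2 h, 1041 on 1 shock at 6 h, 784 on 7 shocks at 2 h and 676 on 7 shocks at 6 h. The reading of 1 shock at 6 h was above the other 4, which lay between 671 and 784. Against sham the log2 differences were -0.18, 0.46, 0.045 and -0.17, and without rescaling of the arrays the last of these was 0.32.

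The other Cbln1 probe sets differed from each other. The probe set 1423287_at read 205 on sham, 219.9 on 1 shock at 2 h, 344 on 1 shock at 6 h, 237 on 7 shocks at 2 h and 254 on 7 shocks at 6 h, with the same high array as the main one. The probe set 1423288_s_at, whose suffix marks probes that may also bind other transcripts, read 361, 370.2, 328, 339.5 and 270.3 in the same order and had no high array at 1 shock and 6 h. At 6 h after 1 shock the log2 differences from sham were 0.46 and 0.75 for the first pair and -0.14 for the suffixed probe set.

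Set against all genes, 0 of the 3 markers passed 2-fold in 7 of the 8 comparisons and 1 did in the remaining one. A gene was called at a 2-fold difference, a log2 difference of at least 1 in either direction, and the share of all 6650 kept genes past that size is the background. That background takes in dim genes. Among genes of the brightest 25% of probe sets, which hold all 3 members, a smaller share passed. Against sham, 0 of the 3 passed at 2 h after 1 shock, where the background was 12.3%, at 6 h after 1 shock (14.1%), at 2 h after 7 shocks (13.3%) and at 6 h after 7 shocks (13.8%). Without rescaling, Nr5a1 at 6 h after 1 shock was at 1.13 and passed. The 4 comparisons share the sham array. The median size of the difference over all genes was 0.37 to 0.43 in the 8 comparisons, and all 4 values of the main Slc17a6 probe set against sham were below it. Those of the second were above it in 3 of the 4.

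Between the time points, the question was whether the markers held level from 2 h to 6 h. After 1 shock, Nr5a1 was 2.34-fold higher at 6 h than at 2 h, a log2 difference of 1.23, and was the 1 member of 3 past 2-fold, where 15.0% of all genes passed in either direction. A difference larger in size was seen in 8.87% of all genes. Cbln1 differed by 0.63 and Slc17a6 by 0.35 in the same comparison, and without rescaling Cbln1 passed 2-fold, at 1.16. The second Nr5a1 probe set gave -0.90 there, and the suffixed Cbln1 probe set gave -0.17.

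After 7 shocks the same comparison gave 0.083 for Nr5a1, 0.14 for Slc17a6 and -0.21 for Cbln1, with 0 of 3 past 2-fold and a background of 12.9%. The readings at the 2 times were thus closer to each other after 7 shocks than after 1 for all 3 main probe sets. The dim Nr5a1 probe set and the suffixed Cbln1 probe set went the other way, at -1.94 and -0.33 after 7 shocks. With 1 array in each group this difference between the pairs was not tested.

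For 7 shocks against 1, the log2 differences at 2 h were 0.87 for Nr5a1, 0.22 for Slc17a6 and 0.22 for Cbln1, with 0 of 3 past 2-fold and a background of 13.7%. Without rescaling, Nr5a1 stood at 1.51 in this comparison and passed 2-fold. At 6 h they were -0.27, 0.0052 and -0.62, with 0 of 3 past 2-fold and a background of 16.5%. The Slc17a6 readings of the pair of 6 h arrays, 561 and 563, were nearly equal.

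**Figure D2:**
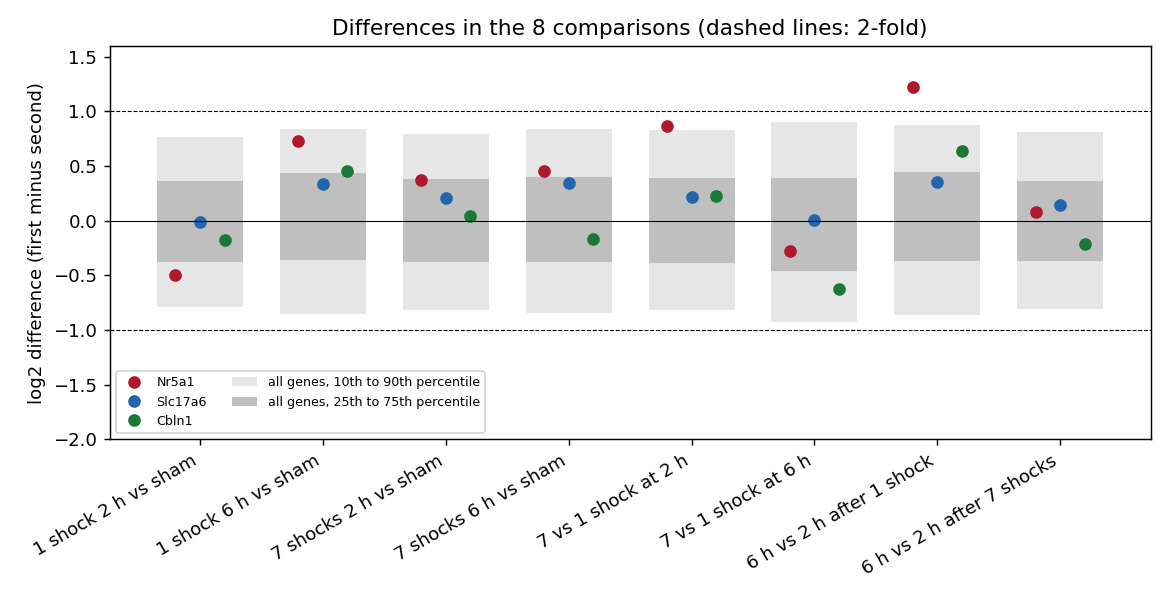
Log2 difference (vertical axis) of Nr5a1, Slc17a6 and Cbln1 in each of the 8 comparisons (horizontal axis), 1 array on each side; grey boxes hold the 10th to 90th and the 25th to 75th percentile of all 6650 genes and dashed lines mark 2-fold. Nr5a1 at 6 h against 2 h after 1 shock, at 1.23, is the only point past a dashed line.

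Over the 5 arrays, the highest reading exceeded the lowest by 2.34-fold for Nr5a1, 1.55-fold for Cbln1 and 1.28-fold for Slc17a6. The range of Slc17a6, 0.36 on the log2 scale, was wider than that of 6.38% of all genes, and it was 0.98 without rescaling and 0.70 by the second probe set. For Cbln1 and Nr5a1 these shares were 25.0% and 66.0%. With the second probe sets Cbln1, at 0.45, had a narrower range than Slc17a6, as it did with the mean of the kept probe sets, at 0.45 against 0.52. The median range was 0.98 over all genes and 0.74 over brighter ones, and among the 3516 genes of the brightest 25% of probe sets the shares were 9.16%, 36.5% and 81.3%. Single arrays set 2 of these ranges. Without 1 shock at 2 h the Nr5a1 range was 0.73 in place of 1.23, and without 1 shock at 6 h the Cbln1 range was 0.22 in place of 0.63.

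All 3 main probe sets had their lowest reading on the array of 1 shock at 2 h, although Slc17a6 differed there from sham by only -0.013 and Cbln1 read 671 there against 676 on 7 shocks at 6 h. Over all genes, 19.9% were lowest on that array. Nr5a1 and Cbln1 were highest on 1 shock at 6 h, as were 25.6% of all genes, and Slc17a6 on 7 shocks at 6 h. The Nr5a1 readings from low to high, 67.3, 94.8, 123, 130.4 and 158, went with Gapdh 3′ to 5′ ratios of 8.77, 6.67, 5.88, 5.55 and 5.37, so the order of one was the reverse of the other. The same ratio of the beta-actin controls, 0.889, 0.799, 0.783, 0.593 and 1.10 in that order, did not follow, and was highest where Nr5a1 was highest. This was noticed after the values were seen, and the part of RNA length in the Nr5a1 readings was not tested.

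Ratios of the genes within an array do not depend on a single scaling factor per array, apart from the pseudocount. Normalization that depends on brightness does move them, and Nr5a1 to Cbln1 at 6 h after 1 shock was 0.28 here, 0.45 after quantile and 0.40 after cyclic loess normalization. Relative to sham, the log2 ratio of Nr5a1 to Slc17a6 was -0.48 at 2 h after 1 shock, 0.39 at 6 h after 1 shock, 0.17 at 2 h after 7 shocks and 0.11 at 6 h after 7 shocks. Nr5a1 to Cbln1 gave -0.32, 0.28, 0.33 and 0.63, and Slc17a6 to Cbln1 gave 0.17, -0.11, 0.16 and 0.51. By the main probe sets, both Nr5a1 ratios were below their sham values on 1 shock at 2 h and above them on the other 3 arrays. With the mean of the kept probe sets of each gene, Nr5a1 to Slc17a6 was -0.062 at 2 h and -0.042 at 6 h after 7 shocks. With the second probe sets, Nr5a1 was below its sham ratio on all 4 arrays. In the order above it was then at -0.41, -1.73, -0.88 and -2.80 to Slc17a6 and at -0.17, -0.89, -0.12 and -1.73 to Cbln1.

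**Figure D3:**
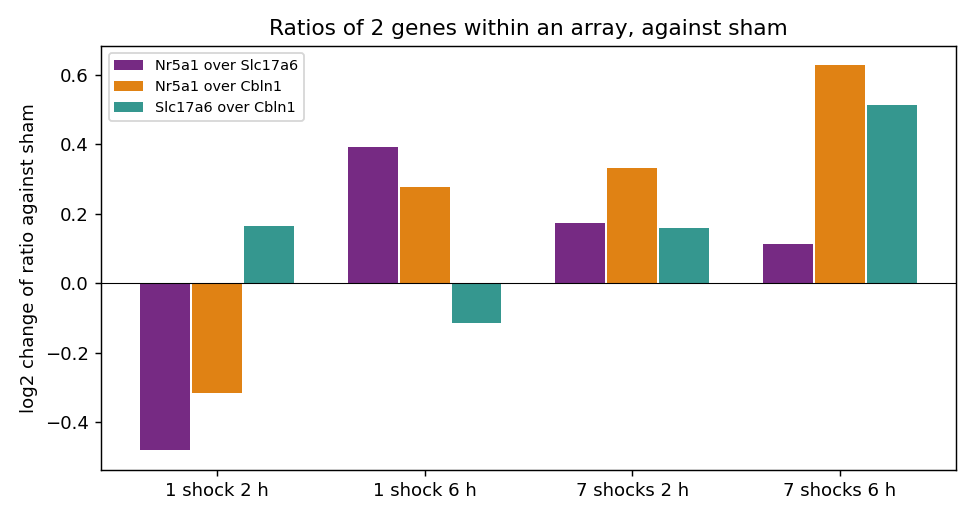
Change of the log2 ratio of 2 genes within an array against the same ratio on the sham array (vertical axis, bars from 0) for the 4 shock arrays (horizontal axis), main probe sets, no replicates and so no error bars. Both Nr5a1 ratios are below 0 on 1 shock at 2 h (-0.48 and -0.32) and above 0 on the other 3 arrays.

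Most other kept markers of the nucleus were not lowest on 1 shock at 2 h, where the main probe sets of the 3 genes were lowest. Of a list of 19 VMH markers, 15 were on the array and 10 were kept, and the 7 besides Nr5a1, Slc17a6 and Cbln1 had median log2 differences from sham of 0.73, 0.75, 0.95 and 0.77, against all-gene medians of 0.0098, 0.062, 0.0075 and 0.011. Among these 7, 3, 2, 3 and 2 genes were at least 2-fold higher than on sham, where 5.98%, 6.74%, 6.57% and 6.78% of all genes were, and 0 were 2-fold lower, where 6.29%, 7.35%, 6.72% and 7.07% of all genes were. The list includes genes that neuronal activity induces, such as the growth factor gene Bdnf, which was at 1.67, 0.77, 1.03 and 2.27, and the synaptic pentraxin gene Nptx2, at 1.68, 1.80, 0.95 and 1.58. The peptide gene Adcyap1, which encodes PACAP, was at 0.56, 1.13, 1.17 and 0.94. Cckbr was at 1.08, -0.030, 1.37 and 0.55, and it was lowest on 1 shock at 6 h, where Nr5a1 and Cbln1 were highest. Of the 7, Gda and the opioid peptide gene Pdyn were, like the 3 genes, lowest on 1 shock at 2 h, and Pdyn was highest on 1 shock at 6 h, with differences from sham of -0.52, 0.40, 0.18 and 0.12. These 2 were singled out after their values were seen. Esr1, Lepr, Nkx2-1, Dlk1 and Sox14 were below the filter.

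The 15 general neuron markers served as a reading of neurons as a whole. They had medians of 0.070, 0.035, 0.29 and 0.24 against sham. At 6 h after 1 shock, the main Nr5a1 probe set at 0.73 was above all 15 of them, as it was for 6 h against 2 h after 1 shock. Uchl1 was next against sham, at 0.71. The dim second Nr5a1 probe set, at -1.03 from sham, was below the lowest of the 15, Rbfox3 at -0.96. Slc17a6 at 0.34 against sham was above 13 and Cbln1 at 0.46 above 14. After 7 shocks at 6 h, Cbln1 at -0.17 was above 1 of the 15. At 2 h after 1 shock Nr5a1 at -0.50 was above 2 of the 15.

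Markers of other tissue differed between the arrays as well. Of 12 cortex and amygdala markers, 9 were on the array and 5 were kept, and their summed reading was 1375 on sham, 946 on 1 shock at 2 h, 436 on 1 shock at 6 h, 1864 on 7 shocks at 2 h and 1539 on 7 shocks at 6 h. The lowest array in that sum was the one where Nr5a1 and Cbln1 were highest. On sham, Mef2c and Camk2a made up most of the sum, at 621 and 544. Some genes of other lists, such as Vip, Cck and Gad1, were also lowest on 1 shock at 6 h. The cortical transcription factor gene Tbr1 had deposited signals of 54.6, 47.8, 0.9, 133.6 and 154.3, and Mef2c and the kinase gene Camk2a were also lowest at 1 shock and 6 h, at log2 differences of -3.38 and -1.32 from sham. The other 2 kept genes of the list, Rprm and Nrgn, were lowest on 1 shock at 2 h instead, and at 1 shock and 6 h they were at 0.59 and -0.25 from sham. Below the filter, Neurod2 and Neurod6 had deposited signals of 0.3 and 0.5 on 1 shock at 6 h, against 12.9 and 26.1 on sham. The dim Bcl11b was also lowest on 1 shock at 6 h after centring, whereas Cux2 was lowest on sham. Over all kept genes, 19.1% were lowest on 1 shock at 6 h. The part of cortical or amygdalar tissue in the Nr5a1 and Cbln1 readings was not tested.

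Of 6 PVN and supraoptic markers, 5 were on the array and 2 were kept, the peptide genes Oxt and Trh. Their median log2 differences from sham were 0.60, -0.13, 0.99 and 1.10. Oxt was at 0.76, -0.52, 1.69 and 1.67, from a dim deposited signal of 12.6 on sham, and Trh was at 0.43, 0.26, 0.30 and 0.52. The PVN transcription factor genes Sim1 and Otp were below the filter, with deposited signals of 1.1 to 14.3 and 2.8 to 20.9. The vasopressin gene Avp was also below it, with deposited signals of 7.1 on sham, 5.1 on 1 shock at 2 h, 53.5 on 1 shock at 6 h, 54.8 on 7 shocks at 2 h and 34.4 on 7 shocks at 6 h, so it was higher on the last 3 arrays than on the first 2. The 5 kept arcuate markers had medians of -0.43, -0.33, -0.34 and 0.46. Of 8 thalamus markers, 7 were on the array and 3 were kept. Their summed reading was 839 on sham, 697 on 1 shock at 2 h and 1192 on 1 shock at 6 h. After 7 shocks it was 922 at 2 h and 729 at 6 h. The order of the arrays was that of the main Cbln1 probe set but not of the other Cbln1 probe sets. This match was noticed after the values were seen. Calb2 made up most of the sum, at 678 on sham and 879 on 1 shock at 6 h. None of the 3 genes had this order by itself, and Calb2 read 633 on 7 shocks at 2 h, below sham. Against sham, Tcf7l2 was at 0.33, 1.71, 1.27 and 0.96. Calb2 was at -0.54, 0.37, -0.10 and -0.43 and Rora at 0.68, -0.51, 0.30 and -0.14. The part of thalamic tissue in the Cbln1 readings was not tested.

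**Figure D4:**
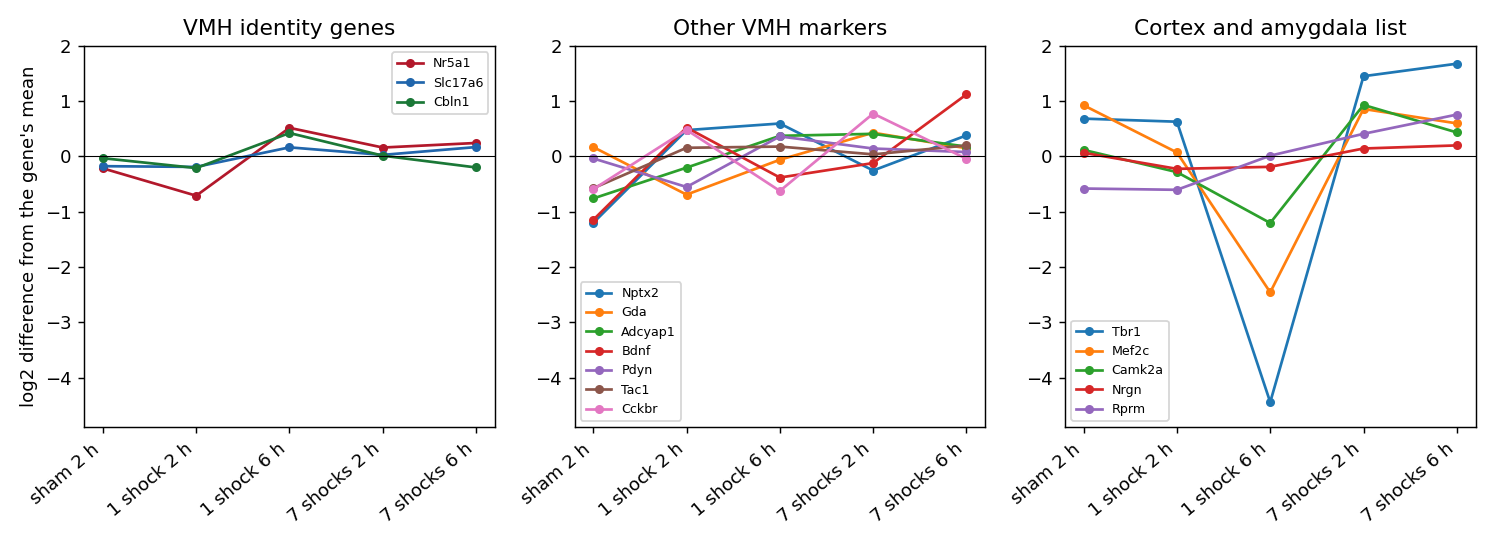
Log2 difference of each gene from its own mean over the 5 arrays (vertical axis), 1 point per array (horizontal axis), for the 3 VMH identity genes, the 7 other kept VMH markers and the 5 kept cortex and amygdala markers. Tbr1, Mef2c and Camk2a are lowest at 1 shock and 6 h, where Nr5a1 and Cbln1 are highest, while Rprm and Nrgn are lowest at 1 shock and 2 h.

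Genes tied to the members in function were described by counts. Of 13 partners and targets of Nr5a1, 5 were kept, with medians of 1.44, 0.24, 0.014 and 1.08 against sham, and 3, 0, 1 and 3 were at least 2-fold higher, where 5.98%, 6.74%, 6.57% and 6.78% of all genes were. Bdnf belongs to this list too, and the count of 1 at 2 h after 7 shocks is Bdnf alone. Star, a cholesterol carrier gene and a known Nr5a1 target in steroid-making tissue, was at 2.07 at 2 h after 1 shock, where Nr5a1 itself was at -0.50. The Star signal was dim on sham, at a deposited 30.5 against 120.4 at 2 h after 1 shock, and only the brightest of its 3 probe sets was read. Cnr1, the cannabinoid receptor gene, was at -1.13 at 2 h after 1 shock, the 1 gene of the list 2-fold lower, where 6.29% of all genes were. Nr0b1, which encodes the Nr5a1 repressor DAX1, was below the filter, with deposited signals of 9.5 to 42.6.

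For Slc17a6, the 9 kept genes of glutamate uptake and metabolism had medians of -0.016, 0.084, 0.38 and 0.011. Of these, 0 were 2-fold lower in any comparison with sham, and Slc38a1, a glutamine transporter gene, was the 1 past 2-fold higher, at 1.13 at 6 h after 7 shocks. Of all genes, 6.29% to 7.35% were 2-fold lower and 5.98% to 6.78% 2-fold higher in these comparisons, so with 9 genes these counts are near the background. For Cbln1, 2 of 8 family members and partners were on the array and 0 were kept. Cbln3 had deposited signals of 0.3 to 0.8 on 4 arrays and 30.1 on 7 shocks at 6 h.

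The genes whose pattern over the 5 arrays was nearest to each member, by root mean square distance of log2 values after each gene's mean was taken off, were other genes than the members. For Nr5a1 they were Tcta, at a distance of 0.046, then Hexa, Plaat1, Retreg2 and Jam3. For Slc17a6 they were Polr3k, at 0.014, then Rabep1, Pkp4, Sgip1 and Atp6v1b2. For Cbln1 they were Magel2, at 0.021, then Znhit3, Polr2b, Tmem43 and Cdc123. With 5 arrays and 6650 genes such near matches are many. Slc17a6 ranked 360th and Cbln1 548th among the genes nearest to Nr5a1. Among those nearest to Slc17a6, Cbln1 ranked 1053rd and Nr5a1 2152nd. For Cbln1, Slc17a6 ranked 735th and Nr5a1 2159th.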

How the data were processed

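Values were the authors' deposited MAS5 signals, a linear intensity for each probe set, per the submitters' processing notes. The MAS5 settings were not given in the sources used here. A second set of animals, named in the design text, was not analysed here. Of 22690 probe sets, 64 controls, 691 with several symbols and 1555 with none were left out. Of the remaining 20380, 20351 matched a RefSeq gene by gene ID (GRCm38.p6).

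Signals were put on the log2 scale after adding 1.2, which is their 10th percentile. The brighter 50% of probe sets other than controls, ranked on their mean log2 value, were kept (10402). Their median was used to centre every array, and a gene took its brightest kept probe set. The planned rule said only "by mean". Before this form was settled, 2 forms with the arithmetic mean had been run and the member values seen; the form used is the one whose gene total equals that of an earlier analysis of these data. The earlier forms are given among the alternatives, which also changed the scaling, the pseudocount, the filter and the choice of probe set.

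No fit or test was made, since each group has 1 array. Named were the members, for each the 5 genes nearest in pattern, at most 4 genes per list with the largest difference from sham, and genes a result turned on. The members and the 20 gene lists were chosen with earlier results of these data known. The promoter motifs, the second probe sets and the leaving out of arrays were chosen after the values were seen. The calculation was tested on simulated data. Python 3.11.15, numpy 2.4.6, pandas 2.3.3 and matplotlib 3.10.9 were used, with R 4.3.3 and limma 3.58.1 for quantile and cyclic loess normalization.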

Additional observations from a re-analysis of the deposited data

Results flagged for a closer look

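In 3 pairs of comparisons a member lay above in one and below in the other. Nr5a1 was at 0.87 for 7 shocks against 1 at 2 h and at -0.27 at 6 h. Cbln1 was at 0.22 and -0.62 in the same pair. Cbln1 was also at 0.63 for 6 h against 2 h after 1 shock and at -0.21 after 7 shocks. Each value is a log2 difference of 1 array against 1 array, and the difference within each pair was not tested. Its size, 6 h against 2 h after 7 shocks minus the same after 1, was -1.15 for Nr5a1 and -0.85 for Cbln1, and 22.3% and 33.7% of all genes had a larger one.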

How the results depend on the processing

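Of 216 values (24 member differences under 9 other settings chosen at the outset), 209 kept their sign and 213 their side of 2-fold. Some of these could not change. Leaving out suffixed probe sets could move none of its 24 values, because no main probe set has a suffix. The mean of the kept probe sets could not move Nr5a1, for which only the main one was kept. The values that moved by more than the median difference of all genes, 12 in number, were all without rescaling. In the order 6 h against 2 h after 1 shock, 7 shocks at 2 h against sham, 7 shocks at 6 h against sham and 7 against 1 shock at 2 h, they were 1.76, 0.88, 0.94 and 1.51 for Nr5a1, 0.88, 0.71, 0.83 and 0.85 for Slc17a6 and 1.16, 0.55, 0.32 and 0.86 for Cbln1. Nr5a1 at 6 h after 1 shock against sham, at 1.13, also passed 2-fold without rescaling. The ranges over the arrays without rescaling were 1.76, 0.98 and 1.16.

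With the second brightest probe set of each member, 10 of 24 values kept their sign and 19 their side of 2-fold. The 1 value past 2-fold with the main probe sets reversed and 9 moved. Nr5a1 at 6 h against 2 h after 1 shock reversed to -0.90, and its other values were -1.03 at 1 shock and 6 h, -0.21 and -2.14 at 7 shocks and 2 h and 6 h against sham, -1.94 for 6 h against 2 h after 7 shocks and -0.076 and -1.12 for 7 against 1 shock at 2 h and 6 h, with a range of 2.14. Cbln1 was at -0.14 for 1 shock at 6 h against sham and -0.17 for 6 h against 2 h after 1 shock, and Slc17a6 at 0.67 for 7 shocks at 2 h against sham. The cause was not tested.

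Leaving out each array in turn, the range was 0.73 to 1.23 for Nr5a1, 0.34 to 0.36 for Slc17a6 and 0.22 to 0.63 for Cbln1. The lows came without 1 shock at 2 h for Nr5a1 and without 1 shock at 6 h for Cbln1.

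The 2 earlier filter forms kept 6549 and 6658 genes. They called 848 to 1124 and 874 to 1170 genes past 2-fold over the 8 comparisons, against 816 to 1097, and no member difference moved by more than 0.016. With no filter 3042 to 3664 genes passed, and with the top 25% 168 to 298 of 3516 did. Without rescaling 1467 to 1873 passed in the 4 comparisons where the count moved. No paired analysis was possible because each group has 1 array. A dim probe set such as the second of Nr5a1 is read with little signal above background, and detection calls were not used here.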
